A study of Rattus norvegicus with 4 samples.

Results

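The very highly occupied positions of control rat sperm were called nucleosome positions of chromosome 2 at which the summit values of both control libraries added up to at least 80 of the authors' units, about 10 reads. Of 868880 positions called in the table of the control pair, 4980 (0.573%) met this limit, and these are called members below. Both control summit values chose the members, so the control levels given below are a description and support nothing. No other value enters the rule, though it was set with earlier results of these data known. The treated libraries were read afterwards at the same places.

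The sperm came from the cauda of the epididymis of randomly bred Holtzman rats, 75 days old per the labels, with no genetic change named. Controls received only sterile water. The treated rats received, by mouth for 60 days, either cyproterone acetate, a blocker of the androgen receptor, at 20 mg per kg per day, or tamoxifen, a modulator of estrogen receptors, at 0.4 mg per kg per day. There were 2 control libraries and 1 library for each treatment. Each group held 6 animals, and how many of them went into a library is not stated. The labels report that no round cells were seen by microscopy after treatment with a reducing agent. The tables carry no gene names, so the identity of the cells was not checked here.

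During spermiogenesis protamines take the place of nearly all histones, and pack the DNA tightly. The nucleosomes that stay behind have been linked to promoters of developmental genes and to repeated sequence, in proportions that differ between protocols. Micrococcal nuclease cuts between nucleosomes and leaves about 150 bp protected by each. The genes and sequences at the members were not analysed here, since the coordinates are on rn6 and no sequence of that build was used.

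Coverage was thin, which is why 10 reads is a high value. The summit values of each library rose in steps of the value of 1 read, and 100% of them fell on multiples of 0.5 reads within 0.001 reads. Reads here and below are summit heights in that unit, and reads of a set of positions are sums of such heights. Called centers lay as little as 75 bp apart, so a fragment of about 150 bp may count at more than 1 summit. The counting intervals leave this out. The reads at called positions of chromosome 2 numbered 1067555 in the shallower control, 1170574 in the deeper control, 1563294.5 with cyproterone acetate and 1311684.5 with tamoxifen. The mean was 1.23, 1.35, 1.61 and 1.46 reads per called position in that order. A single library reached 10 reads at 659 positions in the shallower control, 347 in the deeper one, 2229 with cyproterone acetate and 1666 with tamoxifen. Headers do not tell which control is replicate 1, so the pair is named by depth.

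Members ranged widely, and most lay close to the limit. The median member held 7 reads in the shallower control and 5 in the other. Of the members, 2438 (49.0%) lay between 80 and 90 units and only 71 (1.43%) reached 240. The 3 members just inside the limit, centered at 245214932, 259149622 and 262843082, each had a sum of 80.2 units from 9.5 reads in the shallower control and 0 in the deeper one. The 3 positions just outside, at 143544082, 148967122 and 172313392, each had 79.8 units from 4.5 and 5.5 reads. A read of the shallower control is worth 8.44 units and a read of the deeper one 7.60, so a rule in units takes some positions with fewer than 10 reads and leaves out others with 10.

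Members lay near each other far more often than other positions lay near a member. Another member was centered within 1000 bp of 969 members, or 19.5% (exact 95% binomial interval 18.4 to 20.6%). Of the 863900 other positions, 3.73% had a member within that distance. Within 200 bp, about the spacing of adjacent nucleosomes, the shares were 7.15% and 0.582%. Within 10000 bp they were 44.8% and 28.6%, so the contrast was sharpest at short range. The intervals here and below describe counting error alone: no molecular identifiers are named that would separate PCR copies, and members that share a place are not independent.

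**Figure D1:**
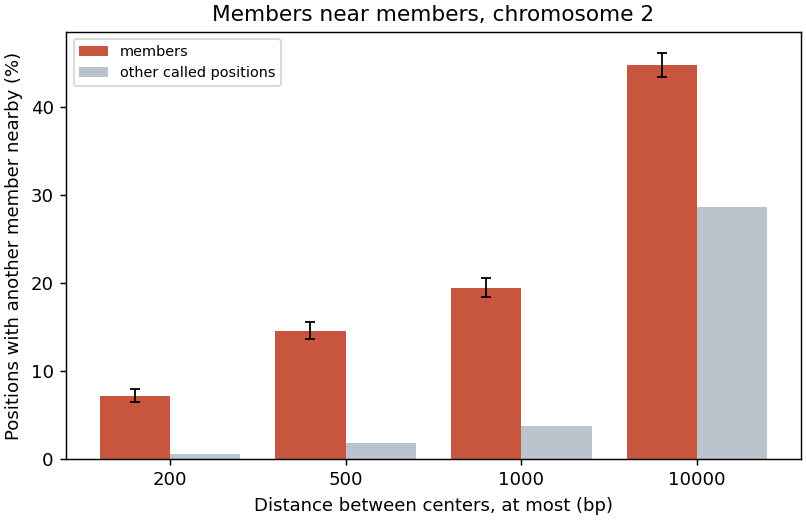
Percent of the 4980 members (red, with exact 95% binomial intervals) and of the 863900 other called positions (grey) that have another member centered within the distance on the x axis (bp), chromosome 2. The members stand at 7.15, 14.6, 19.5 and 44.8%, the other positions at 0.582, 1.84, 3.73 and 28.6%.

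Joining members at most 1000 bp apart gave 4344 places on the chromosome. Of these, 4011 were single members, which are called isolated here and made up 80.5% of all members. Another 221 were pairs. The remaining 112 held 3 or more members, with 527 members (10.6%) between them, and are called clusters below. The clusters spanned a median of 1117.5 bp from first to last center, and the longest spanned 6520 bp. Neighbouring members of a cluster were a median of 295 bp apart, and 135 of the 415 gaps (32.5%) were at most 200 bp. Along the whole chromosome consecutive members were a median of 27505 bp apart, against 200 bp for consecutive called positions. The widest stretch without a member ran from 76461127 to 77483442.

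A few megabases held most of the members in clusters. The median 1 Mb window had 15 members, and the range over 267 windows was 4 to 215. The 5 fullest windows were 156 to 157 Mb with 215 members, 0 to 1 Mb with 192, 194 to 195 Mb with 132, 1 to 2 Mb with 108 and 161 to 162 Mb with 91. Members were 11.0% of the called positions in the first of these and 9.0% in the second. Together the 5 windows held 1.23% of the called positions but 738 members (14.8%). They held 322 of the members in clusters (61.1%) and 268 of the isolated ones (6.68%). The other positions in these windows averaged 1.44 and 1.64 reads in the shallower and deeper control, against 1.19 and 1.32 elsewhere. They also had fewer called positions, with a median of 2133 per window against 3354.5.

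Both control libraries contributed reads to nearly every member. Reads in both were found at 4932 members (99.0%), where the background over all called positions was 42.0%. The rule used these values, and nothing is read from that difference. The shallower control gave the larger part: members took up 33645 RPM (reads per 1000000 reads at called positions of the chromosome) in it and 22868 RPM in the deeper control, a ratio of 1.47. This gap shrank with clustering. It was 1.59 at isolated members, 1.31 in pairs, 1.16 in clusters of 3 or 4 members and 1.03 in clusters of 5 or more.

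At single members the controls still differed widely. Scaled to the reads of each library, 2050 members (41.2%) differed at least 2-fold, against 73.3% of all called positions and 36.4% of those with reads in both. Of the members, 34.6% were higher in the shallower control and 6.53% in the deeper one. The share differing was 42.9% among isolated members, 28.3% in clusters and 25.8% in clusters of 5 or more. By the ratios in the authors' deposited table, 41.3% of members were at least 2-fold apart, against 78.3% of all positions, and 21.8% had a false discovery rate of at most 0.05, against 15.7%.

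**Figure D2:**
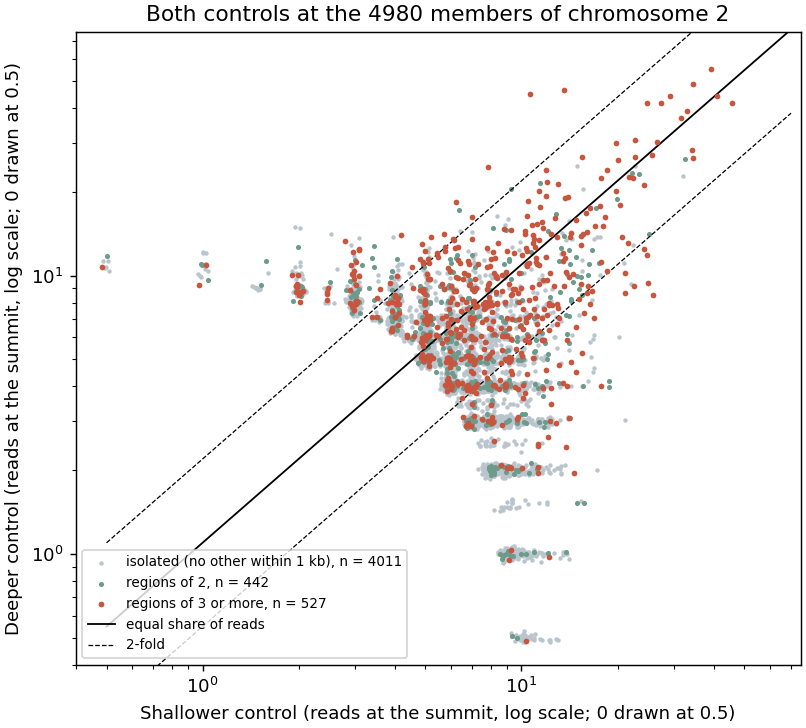
Reads at the summit in the shallower control (x axis) and the deeper control (y axis) at each of the 4980 members, both on log scales with 0 drawn at 0.5 and points jittered slightly. The solid line marks equal shares of reads and the dashed lines 2-fold differences; members of clusters (regions of 3 or more, red, n = 527) lie along the solid line at high values, while isolated members (grey, n = 4011) spread below it along the edge that the selection limit draws.

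At 48 members only a single control had reads, the shallower one at 42 and the deeper one at 6. They ranged from 9.5 to 13 reads. The highest were at 227669232 and 258989432, each with 13 reads in the shallower control and 0 in the deeper one. The pooled control columns of both treatment tables, read within 50 bp, held exactly the reads of that single library at 48 of 48 such members (tolerance 0.01 units). The other control was thus at 0 there in all 3 tables. At 258989432 both treated libraries had 2 reads.

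The treated libraries were then read at the members. Positions were called separately in each table, so a member was matched only where the treatment table had a center within 10 bp. That was so for 2123 members (42.6%) with cyproterone acetate and 2066 (41.5%) with tamoxifen, against 34.2 and 34.8% of all control positions. Within 50 bp, 96.2 and 95.5% of members had a partner, so nearly all members without a match had a called position farther than 10 bp away. Matched members had a median control sum of 90.3 units for each treatment, and unmatched ones lay within 1 unit of it.

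Most members were not high in the treated libraries. The median matched member had 2 reads with cyproterone acetate (quartiles 1 and 4, highest 166.5) and 2 with tamoxifen (quartiles 1 and 4, highest 97). At least 5 reads were found at 444 members with cyproterone acetate, or 20.9% (interval 19.2 to 22.7%), against 3.06% of all matched positions. With tamoxifen it was 464, or 22.5% (20.7 to 24.3%), against 2.23%. No read was found at 20.8% with cyproterone acetate and 19.8% with tamoxifen, where the background was 43.0 and 48.8%. Members were thus fuller than ordinary positions in libraries whose values the rule did not use. How far they stood below the controls cannot be read from these values, since the same control reads chose the members. The limit of 5 reads is in unscaled reads, and the treated libraries were 1.46 and 1.23 times as deep as the shallower control.

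Matched members held a share of cyproterone acetate reads 0.453 times (counting interval 0.442 to 0.465) that of both controls together. For tamoxifen the ratio was 0.485 (0.473 to 0.498). Over all matched positions of the chromosome the ratios were 0.566 and 0.578, so a ratio below 1 was not particular to members. Positions between 60 and 80 units, just under the limit, stood at 0.311 and 0.384. Isolated members stood at 0.302 and 0.382, hardly apart from those.

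Members in clusters held more treated reads than isolated ones, but few of them were at least 2-fold above the controls. Matched members in clusters had a median of 7 reads with each treatment. Their summed share of reads was 1.16 times the controls (1.11 to 1.21, n = 211) with cyproterone acetate and 0.986 times (0.935 to 1.04, n = 192) with tamoxifen. At least 5 reads were present at 69.7% and 71.9% of them, against 13.1% and 15.1% of isolated members. Such sums give most weight to the highest members. By the authors' deposited table, 93 of the 211 (44.1%) were at least 2-fold lower than the pooled controls with cyproterone acetate and 20 (9.48%) at least 2-fold higher. With tamoxifen 70 of the 192 (36.5%) were lower and 14 (7.29%) higher in those deposited tables. Over all matched control positions the lower and higher shares were 59.2 and 9.39% with cyproterone acetate and 59.1 and 8.44% with tamoxifen. In clusters the higher shares lay near that background and the lower shares lay under it. No direction is read from these calls. In clusters of 5 or more members the summed ratios were 1.46 (1.38 to 1.54) and 1.15 (1.08 to 1.23), while the authors' deposited tables had 33.9% and 33.6% of their members at least 2-fold lower and 16.1% and 12.1% higher. Taken as whole places, with every called position up to 500 bp beyond the outer members, the median cluster of 5 or more stood at 0.985 and 0.955, and 18 and 17 of these 37 clusters were above 1.

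Isolated members and those in clusters were also compared within narrow bands of control level, which were set after the data were seen. Between 80 and 90 units members in clusters stood at 0.704 (0.582 to 0.856, n = 31) with cyproterone acetate and isolated ones at 0.315 (0.301 to 0.331, n = 911). With tamoxifen these were 0.706 (0.563 to 0.875, n = 27) and 0.365 (0.347 to 0.383, n = 882). Between 120 and 160 units clusters stood at 0.783 (0.702 to 0.873, n = 55) and isolated members at 0.348 (0.311 to 0.389, n = 97) with cyproterone acetate. The tamoxifen values there were 0.686 (0.601 to 0.781, n = 47) and 0.445 (0.399 to 0.497, n = 96). In the bands from 90 to 100 and from 100 to 120 units the order was the same. Clusters were thus above isolated members in all 4 bands with each treatment. The counting intervals did not overlap, but they take members as independent counts and leave out the choice on the controls. The control reads that set the bands also enter each ratio, so low ratios are set in part by the choice. Without bands, an unused control gave the same order. With 40 units or more in the shallower control, 37.1% of clustered and 7.98% of isolated matched positions had 5 or more deeper-control reads. Most cluster ratios were below 1 in these bands, the exception being 1.05 (0.911 to 1.21) with cyproterone acetate between 100 and 120 units. Above 160 units most members had a neighbour (73.7% between 160 and 240 units and 84.5% at 240 or more), and isolated members and clusters were not compared there.

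Treated reads rose with the control level of the member. Between 80 and 90 units 12.7% of matched members had at least 5 reads with cyproterone acetate and 12.5% with tamoxifen. Between 120 and 160 units it was 46.9% and 48.6%. At 240 or more it was 89.7% and 100%, with medians of 21.5 and 22 reads. The share of members with another within 1000 bp climbed alongside, from 11.1% to 84.5%, so level and clustering moved together.

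**Figure D3:**
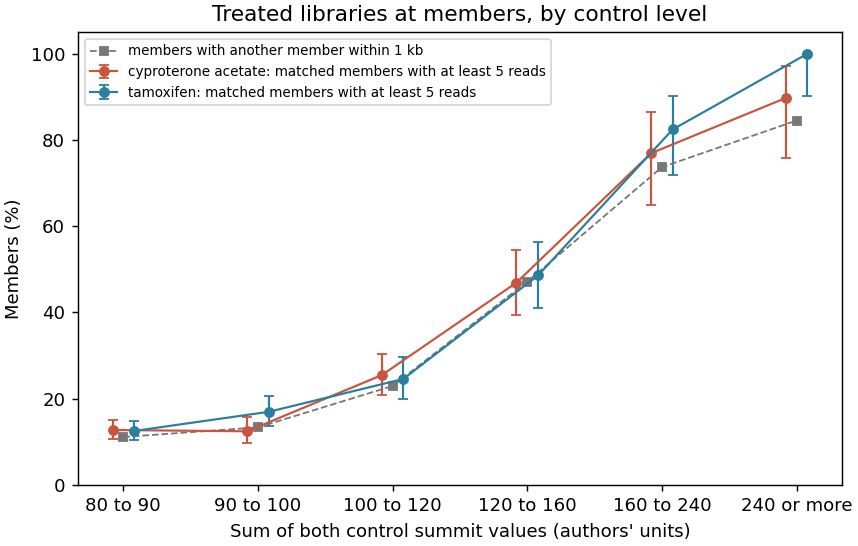
Percent of matched members with at least 5 reads in the cyproterone acetate library (red) and the tamoxifen library (blue), with exact 95% binomial intervals, by the sum of both control summit values in the authors' units; grey squares give the percent of members with another member within 1000 bp. All 3 lines run from 11.1 to 12.7% in the lowest band to between 84.5 and 100% in the highest.

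Calls against the pooled controls lay almost wholly on the lower side. In the authors' deposited table, turned so that a positive ratio means higher in the treated library, 1723 matched members (81.2%) were at least 2-fold lower with cyproterone acetate and 29 (1.37%) at least 2-fold higher. The backgrounds were 38.1 and 37.4% over the whole table and 59.2 and 9.39% over matched control positions. For tamoxifen the authors' deposited table gave 1536 members lower (74.3%, background 39.1 and 59.1%) and 28 higher (1.36%, background 33.1 and 8.44%). By the authors' deposited tables, the false discovery rate did not exceed 0.05 at 61.5% of matched members with cyproterone acetate and 47.6% with tamoxifen, against 13.4 and 16.6%. The members were picked for high control values and the same controls form the pool, so this direction is set in part by the choice and nothing is read from it. Of the 29 and 28 higher members, 20 and 14 lay in clusters, where the lower ones were more numerous still, at 93 and 70.

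A control that took no part in the choice gives the level to set beside the treated ones. Positions with at least 40 units in a single control were taken, and the other control and both treated libraries were read at those matched in both treatment tables. Chosen on the shallower control, 4726 of 21506 positions were matched, with a median of 5 reads there. The unused deeper control had a median of 1.5 reads at these positions, and each treated library had 1. At least 5 reads were found at 10.0% in the deeper control, 8.38% with cyproterone acetate and 9.12% with tamoxifen. Chosen on the deeper control (1555 of 7215 matched), the medians were 6 reads there, 2 in the unused shallower control and 1 with each treatment, and the shares with at least 5 reads were 19.8, 16.1 and 15.7%. The unused control was thus also well below the chosen library at these positions. These medians and shares are in reads not scaled for depth. The deeper control was 1.10 times as deep as the shallower one, the cyproterone acetate library 1.46 times and the tamoxifen library 1.23 times. What lowers the treated levels was not tested.

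The treated shares set against the unused control fell on both sides of 1. Chosen on the shallower control, the ratio to the deeper one was 0.747 (0.726 to 0.768) with cyproterone acetate and 0.869 (0.845 to 0.894) with tamoxifen. Chosen on the deeper control, the ratios to the shallower one were 0.787 (0.756 to 0.819) and 0.821 (0.788 to 0.856). The unused control was read in the table that defined the positions and the treated libraries in other tables. In clusters the summed ratios were above 1, at 1.22 and 1.13 for the choice on the shallower control (n = 251) and 1.45 and 1.23 for that on the deeper one (n = 122). The median position did not show this in either choice. For the choice on the shallower control the clustered positions had a median of 3 reads in the unused control, 2 with cyproterone acetate and 3 with tamoxifen, and no read at 17.5, 25.1 and 21.1%. For the choice on the deeper one the medians were 6, 8 and 7 reads, not scaled for depth. The treated libraries were 1.46 and 1.23 times as deep as the shallower control, which was the unused one there. With depth taken into account, neither treated median exceeded that of the unused control. At a limit of 80 units in a single control, added after the data were seen, all matched positions together were at 1.11 and 1.09 (n = 163) or 1.37 and 1.22 (n = 70). Isolated ones among them were at 0.736 and 0.941 (n = 128) or 0.772 and 0.821 (n = 47), and the interval of the 0.941, 0.845 to 1.05, included 1.

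**Figure D4:**
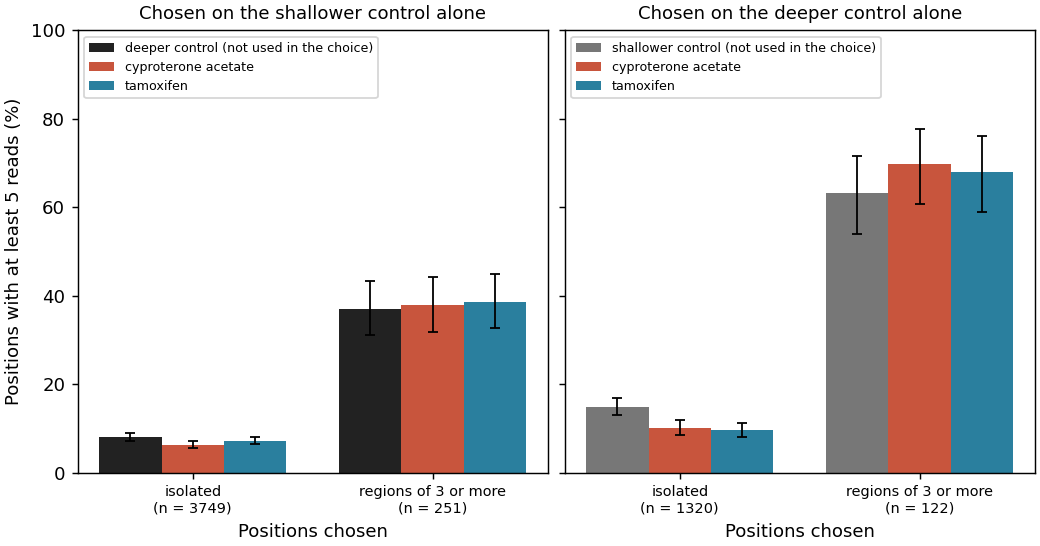
Percent of matched positions with at least 5 reads among positions that reached 40 units in the shallower control alone (left) or the deeper control alone (right), read in the control not used (grey or black), with cyproterone acetate (red) and with tamoxifen (blue); bars carry exact 95% binomial intervals. Clustered positions are those in regions of 3 or more chosen positions. The limit of 5 reads is not scaled for depth, and the treated libraries were deeper than both controls. On the left isolated positions stand at 7.98, 6.24 and 7.20% and clustered ones at 37.1, 37.8 and 38.6%; on the right they stand at 14.9, 10.1 and 9.55% and at 63.1, 69.7 and 68.0%.

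Clusters were also compared as whole places, with every called position up to 500 bp outside the first and last member, which needs no matching. The 112 clusters covered 267.2 kb. They held 6417.5 reads in the shallower control and 6928 in the deeper one, on 1389 positions. With cyproterone acetate they held 11684.5 reads on 1464 positions and with tamoxifen 8769.5 on 1387. Mean reads per position were 4.62, 4.99, 7.98 and 6.32 in that order. The summed share of reads was 1.25 times the controls (1.22 to 1.28) with cyproterone acetate and 1.12 times (1.09 to 1.15) with tamoxifen. The median cluster pointed the other way, at 0.841 and 0.879, and 33 and 38 of the 112 were above 1. The control reads that chose the clusters also form the base of these ratios, so values below 1 are set in part by the choice. The same holds for the single clusters below, whose counting intervals leave the choice out. Without the 3 clusters with most cyproterone acetate reads, a choice made on that outcome, the summed share was 1.08 and 0.975 times the controls. Isolated places compared in the same way were at 0.608 and 0.679.

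The 8 clusters with most members, called R1 to R8, differed among themselves. Ties were broken by the summed control value, and R8 was 1 of 5 clusters with 8 members. Coordinates run from first to last member center on rn6. R1, chr2:156210237-156216757, was the largest, with 19 members, and held 200.5 reads in the shallower control, 252.5 in the deeper one, 307.5 with cyproterone acetate and 245 with tamoxifen. In RPM these were 188, 216, 197 and 187, so both treated values lay at the level of the controls. R3 (chr2:161573712-161578167, 14 members) and R4 (chr2:435132-438682, 11 members) were alike, with ratios of 1.17 and 1.10 in R3 and of 1.01 and 0.972 in R4 for cyproterone acetate and tamoxifen, and with counting intervals that included 1.

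R2, chr2:137157702-137162122, had 16 members and was lower in both treated libraries. It held 184 and 178 reads in the controls, 163.5 with cyproterone acetate and 160.5 with tamoxifen, for ratios of 0.647 (0.536 to 0.782) and 0.757 (0.622 to 0.911). R5, chr2:115247-119454, had 10 members and 111.5, 140.5, 256 and 195.5 reads, for ratios of 1.45 (1.22 to 1.74) and 1.32 (1.10 to 1.61). The controls of R2 and R5 differed by 1.13 and 0.870 (shallower over deeper).

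R6 separated the treatments. At chr2:160884882-160888027 its 9 members and their surroundings held 161 and 247.5 reads in the controls, 494 with cyproterone acetate and 218.5 with tamoxifen. The cyproterone acetate share was 1.73 times the controls (1.52 to 1.98) and the tamoxifen share 0.913 times (0.770 to 1.08). The controls themselves differed there by 0.713.

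R7 and R8 were above both controls with each drug. R7, chr2:49363687-49365797, had 9 members and 158.5, 217, 787 and 473.5 reads, for ratios of 3.00 (2.65 to 3.40) and 2.15 (1.87 to 2.47). R8, chr2:193571797-193573292, had 8 members on 1495 bp and 155, 124.5, 832 and 838.5 reads, for ratios of 4.26 (3.71 to 4.89) and 5.12 (4.46 to 5.87). In R8 the tamoxifen library exceeded the cyproterone acetate library in RPM, at 639 against 532, and in R7 it was below it, at 361 against 503. With 1 library for each treatment these differences have no replicate check. The other 4 clusters of 8 members did not share the high treated values of R8. Their ratios were 0.664 and 0.597 at chr2:195070212-195072362, 0.865 and 0.661 at chr2:1212772-1215737, 0.985 and 1.03 at chr2:156681457-156684377, and 0.953 and 0.949 at chr2:1301497-1304682, for cyproterone acetate and tamoxifen in that order.

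**Figure D5:**
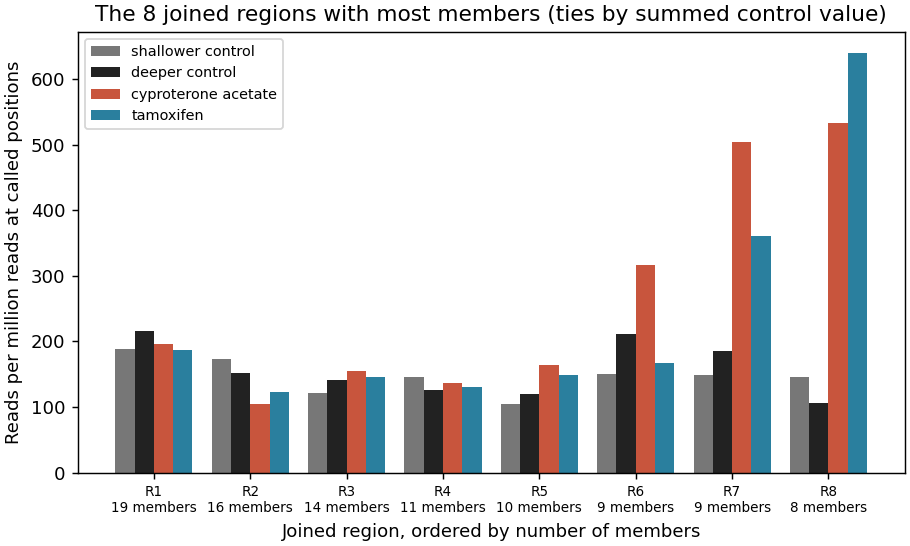
RPM (reads per 1000000 reads at called positions of chromosome 2) in the 8 clusters with most members (R1 to R8; R8 is the 1 with the highest summed control value of 5 clusters with 8 members), in the shallower control (grey), the deeper control (black), the cyproterone acetate library (red) and the tamoxifen library (blue); each bar is 1 library. R1 to R5 lie between 104 and 216 in every library, R7 and R8 reach 503 and 532 with cyproterone acetate and 361 and 639 with tamoxifen.

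Across all 112 clusters, 8 were at least 2-fold above the controls with cyproterone acetate and 6 with tamoxifen. At least 2-fold below them were 8 and 9. Over all 4344 places, isolated ones included, 49 and 45 were as far above the controls and 1830 and 1398 as far below. The choice on the controls sets low ratios in part, so nothing is read from the lower counts. Between the controls 3 clusters differed at least 2-fold, against 1063 of all places. Besides R7 and R8 the higher ones included neighbours at chr2:197137992-197138647 and chr2:197139892-197141027, with ratios of 4.22 and 4.17 for cyproterone acetate and 2.19 and 2.57 for tamoxifen. The cluster at chr2:156859547-156861267 was at 3.60 and 2.28, and that at chr2:1383762-1385602 at 3.58 and 3.29. With cyproterone acetate alone, chr2:157031422-157032022 and chr2:160890282-160891592 were each at 2.34, while tamoxifen was less than 2-fold above the controls in both. Clusters of 5 or more members made up 7 of the 8 higher with cyproterone acetate and all 6 higher with tamoxifen. They made up none of the 8 lower with cyproterone acetate and 1 of the 9 lower with tamoxifen. Of all 112 clusters, 37 had 5 or more members. Control level and clustering rose together, so these counts do not separate them.

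The lower clusters were small, and the choice on high control values favours low ratios at them. At chr2:163587647-163588127 the controls held 26 and 30 reads, cyproterone acetate 6 and tamoxifen 17.5, for ratios of 0.153 (0.0540 to 0.355) and 0.533 (0.303 to 0.947). At chr2:161016977-161018552 the reads were 53, 67.5, 28 and 34.5, for ratios of 0.333 and 0.489. The treatments took opposite sides of the controls at chr2:6622682-6623517, with 29, 24.5, 13.5 and 38 reads, and at chr2:156925507-156925817, with 43.5, 35, 23.5 and 60. In both, cyproterone acetate was below and tamoxifen above each control in reads. Of the 3 clusters in which the controls were 2-fold apart, chr2:197079757-197080457 had the most reads, with 61.5 in the shallower control and 148 in the deeper one, 139.5 with cyproterone acetate and 95.5 with tamoxifen. Both treated values lay between those of the controls there.

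All 10 members with the highest control sums lay in clusters of 3 to 9 members, and 5 of them in the window from 49 to 50 Mb. The highest, at 160885662 in R6, had 38.5 reads in the shallower control and 56.5 in the deeper one, a sum of 755 units. It had 120.5 with cyproterone acetate and 39 with tamoxifen, so only the former exceeded both controls. The next, at 49364062 in R7, had 46 and 42.5 reads in the controls. The nearest treated centers, 17 and 25 bp away and so beyond the matching limit, had 121.5 and 87 reads. At 156860662 the controls had 30.5 and 36 reads, cyproterone acetate 112.5 and tamoxifen 64. At 197080457 the values were 28.5, 44, 56 and 50, and at 49358267 they were 34, 40, 61 and 40.5. In RPM these were 26.7, 37.6, 35.8 and 38.1 at the former and 31.8, 34.2, 39.0 and 30.9 at the latter. At both positions the counting interval of the ratio to the controls included 1 with each treatment. Controls at these 10 differed by ratios from 0.642 to 1.25.

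The members with the highest treated ratios included isolated and clustered ones. The highest ratio with cyproterone acetate was at 6095477, with 7 and 3 reads in the controls, 72 with cyproterone acetate and 21 with tamoxifen. That is 10.3 times the controls (5.29 to 22.4) and 3.58 times (1.62 to 8.52). With tamoxifen it was at 197814857, with 6 and 5 reads in the controls, 37 with cyproterone acetate and 57 with tamoxifen, and next at 188645192, with 8.5, 4, 42 and 56. In these 3 isolated members each treated library was above both controls. The next ones with cyproterone acetate lay in clusters. At 1384905, in a cluster of 7, the controls had 5.5 and 6 reads and cyproterone acetate 49.5, or 6.16 times the controls (3.13 to 12.3). At 160890282, in a cluster of 5, they had 7 and 8, with 57 and 27 reads in the treated libraries, or 5.44 and 3.07 times. The third highest with tamoxifen, 1384032, lay in the same cluster as 1384905, with 12.5 and 15 reads in the controls, 71.5 with cyproterone acetate and 97 with tamoxifen, or 3.72 and 6.02 times.

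Members without a treated read included some with many control reads. At 239037 the controls had 9 and 15 reads, cyproterone acetate 0 and tamoxifen 2. At 194996337, in a cluster of 5, they had 9 and 10, with 0 and 10.5. At 14957492 they had 11 and 6, and cyproterone acetate had 0. At 207238242 they had 7.5 and 10, and tamoxifen had 0. At 79214122 they had 15 and 1.5, and tamoxifen had 0. At 125394672 they had 8 and 9, and both treated libraries had 0. All of these but 194996337 were isolated. A count of 0 allowed a share of up to 0.238 times the controls at 239037 with cyproterone acetate and up to 0.388 times at 207238242 with tamoxifen, from exact 95% counting intervals. These members, and the highest ones above, were picked as the extremes of all matched members.

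The levels of both treated libraries could be set side by side at 1028 members matched in each table. Their reads had a Spearman correlation of 0.541 across members, 0.390 for isolated members (n = 842) and 0.716 in clusters (n = 101). The points share their positions and the choice on the controls, and the value is a description. Of the members with at least 5 reads, 223 with cyproterone acetate and 252 with tamoxifen, 155 were shared, which is 69.5% of the former and 61.5% of the latter. In clusters 67 were shared, 88.2% and 82.7%. Neither library had a read at 89 members (8.66%), and none of these was in a cluster. The same values over all matched positions are not given here, so none of them is read as particular to members.

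The summits of both controls lay close together at members. The authors' distance between them had a median of 20 bp, against 30 bp at the 20982 other positions with at least 3 reads in both controls. It was 20 bp both at isolated members and in clusters.

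On the X chromosome the same limit took 537 of 341280 positions (0.157%), and they were more clustered than those of chromosome 2. Another member lay within 1000 bp of 51.0% of them, against 0.564% of other positions, and clusters of 3 or more held 230 (42.8%). The controls differed at least 2-fold at 30.0%, against 82.0% of all called positions. Treated levels were closer to the controls over all matched members, at 0.967 (0.922 to 1.02) with cyproterone acetate and 0.871 (0.829 to 0.915) with tamoxifen. Split as before, isolated members were at 0.484 and 0.475 and clusters at 1.27 and 1.08, the same order as on chromosome 2. These differences between the chromosomes were not tested.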

How the data were processed

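Sperm chromatin of 4 libraries was digested with 4 units of micrococcal nuclease at 37 °C for 2 minutes, and fragments of about 150 bp were sequenced. Reads went through Bowtie2 and SAMtools 1.4 on build rn6, per the submitters' processing notes. What called the positions was not given in the sources. The authors deposited, for each called position, the summit coverage signal of both sides scaled within a table, their log2 ratio, a false discovery rate (an adjusted p-value) and the distance between summits in bp. In treatment tables the side headed control held 1 library with steps of 1 size and was read as the treated library, the other side as the mean of both controls, and the authors' log2 ratios were turned accordingly. Another 36 columns of single libraries or the pool, fuzziness scores among them, were not used.

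Each summit value was divided by the value of 1 read (8.44 and 7.60 units in the controls, 6.37 with cyproterone acetate, 7.13 with tamoxifen). Shares are reads over all reads at called positions of the chromosome. A ratio of shares carries an exact conditional binomial interval with reads rounded to whole numbers, and a share of positions an exact Clopper-Pearson interval, both at 95%. No test between groups was made, since a treatment had 1 library, and positions are not replicates. Named were the 10 members with the highest sums, the 8 clusters with most members (ties by summed control value), the 5 fullest windows, the 3 positions on either side of the limit, the 3 highest and lowest ratios per treatment, some of the clusters past 2-fold, the other 4 clusters of 8 members and members with reads in a single control; the last 3 kinds were added after their values were seen. Alternatives covered the limit, the distances, a cap of 20 reads per position, the scaling and each control left out. The members and lists were chosen with earlier results of these data known. The read recovery, joining and ratios were tested on simulated data. Python 3.11.15, NumPy 2.4.6, pandas 2.3.3 and SciPy 1.17.1 were used.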

Additional observations from a re-analysis of the deposited data

How the results depend on the processing

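The number of members followed the limit closely: 17998 positions reached 60 units and 637 reached 120, and with a single control at 40 or more the number ran from 7215 to 21506. The percent with another member nearby was 14.6 within 500 bp, 44.8 within 10000 bp and 39.6 among those at 120 or more, and 15.3 to 21.9 with each control left out. At 120 or more 30.5% of members were 2-fold apart between the controls and the median treated level was 6 reads with each drug. Matched shares at 0, 20, 50 and 75 bp were 9.56, 65.2, 96.2 and 99.7% (cyproterone acetate) and 9.56, 64.3, 95.5 and 99.6% (tamoxifen), with the median at 2 reads throughout.

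The cyproterone acetate share at members was 0.700 over whole places, 0.368 with at most 20 reads per position, 0.440 with library sizes from the steps and 0.378 to 0.555 with each control left out. Chosen on 1 control and set against the other it was 0.747 and 0.787 at 40 units, and it passed 1 at 80 units, with 1.11 and 1.37. The tamoxifen share was 0.744, 0.439 and 0.410 to 0.582, then 0.869 and 0.821 at 40 units, and 1.09 and 1.22 at 80. In clusters of 3 or more, leaving out the 3 with most cyproterone acetate reads gave 1.08 and, on the other side of 1, 0.975 for tamoxifen; leaving out a control gave 1.24 to 1.26 and 1.11 to 1.13. The percent at least 2-fold lower was 76.7 by share of reads and 83.0 within 50 bp with cyproterone acetate, and 67.9 and 76.8 with tamoxifen. The choices at 80 units, the clusters left out, the controls left out of clusters and the 50 bp match for shares were added after seeing the data. The cause of these shifts was not tested. Of all alternatives, 26, some of them named above, moved their value by less than its error, or a count by less than 1.5 times. Another 37 moved it by more, and 5 took a ratio to the other side of 1.

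No paired analysis was possible because each treatment has 1 library and no test between groups was made. Most members rest on about 10 control reads, so a ratio at a single member is known only within a wide counting interval, and the libraries give no spread between animals for either treatment.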
